A study of Gorilla gorilla gorilla with 14 samples.

Results

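The HOX cluster genes were followed through 29 regions of a chromatin accessibility table, out of 204249 regions in all. A region was taken as a HOX region when the table named one of 38 HOX genes as its closest gene and gave it a gorilla position, at any distance. These 29 regions belonged to 21 genes: 14 genes had 1 region, 6 had 2 and HOXD8 had 3. The other 17 genes (HOXA2, HOXA6, HOXA9, HOXA11, HOXA13, HOXB1, HOXB2, HOXB3, HOXC4, HOXC6, HOXC9, HOXC10, HOXC11, HOXC12, HOXD1, HOXD4 and HOXD11) are not analysed here. Accessibility was measured by ATAC-seq in bulk, where an enzyme cuts open DNA and tags it for sequencing, on cells sorted from gorilla cerebral organoids at week 8 that were all grown from 1 induced pluripotent stem cell line, GC1. The sorted cells were fixed, per the labels' protocol. The groups were BCL11B+ neurons (N, n = 4), basal intermediate progenitors (bIP, n = 5), basal radial glia (bRG, n = 2) and apical radial glia (aRG, n = 3), with no genetic change or drug named in the labels for any of them. The library numbers form 2 consecutive runs, called the second and the first library series here: bRG is in the second alone, and N, bIP and aRG are in both. One line is 1 genetic background. No label ties a library to its own culture, so p-values measure how much these libraries vary, which may be technical.

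HOX genes encode homeodomain transcription factors that give cells their position along the head-to-tail axis. They lie in 4 clusters, A to D, whose gene order follows the order of expression along the body, and genes with the same number in different clusters (paralogs) descend from 1 ancestor. Hindbrain and spinal cord use them, while forebrain, the region that cerebral organoids resemble, normally keeps them silent under Polycomb proteins. Intermediate progenitors arise from radial glia and divide to give neurons.

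The labels were checked at the promoters of known genes, and none of these differed between bRG and aRG (edgeR). A promoter region is one listed at most 1000 bp from its gene, and levels are CPM (counts scaled to the size of each library) after TMM normalization. SOX2, a radial glia factor, had 9.59 ± 1.56 CPM in N, 32.9 ± 7.72 CPM in bIP, 49.0 ± 3.70 CPM in bRG and 59.3 ± 1.60 CPM in aRG (SD). EOMES, the intermediate progenitor factor, was highest in bIP at 83.0 ± 19.8 CPM, and NEUROD2, a neuronal factor, had 38.6 ± 9.24 CPM in N against 3.91 ± 2.56 CPM in aRG. BCL11B, the factor named in the neuron label, did not separate N from bIP or aRG at its promoter, with 20.3 ± 3.80, 23.6 ± 3.03 and 19.7 ± 3.50 CPM in N, bIP and aRG. Totals per library ran from 12834983 to 26660427 counts, and HOX regions held 2 to 255 counts each per library. Among replicates of a group, aRG 1 and 2 and bIP 1 and 2 were closest: their counts differed by little more than sampling noise (chi-square per degree of freedom 1.069 and 1.105, against up to 11.02 for N 2 and 4).

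Of the 29 regions, 18 were promoter regions, 16 of them listed at 0 bp, and 11 were distal. All but 1 lay within 5000 bp of the listed gene, and the exception was listed at 13400 bp from HOXC13. HOXA had 5 regions over 44.7 kb of chromosome 7, HOXB 9 over 152.1 kb of chromosome 5, HOXC 5 over 109.4 kb of chromosome 12 and HOXD 10 over 68.7 kb of chromosome 2B, as gorGor6 positions in the region names. Widths ran from 247 to 1543 bp. What point of a gene the distances are measured to is not stated in the file, so each region is named here by its gene and listed distance, and no exon or intron is assigned.

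HOX promoters were accessible at low but measurable levels in every cell type. Per kb of region, the 18 HOX promoter regions had medians of 3.14 CPM in N, 3.61 CPM in bIP, 4.05 CPM in bRG and 3.65 CPM in aRG. The corresponding medians over 20663 promoter regions were 8.07, 8.92, 9.27 and 9.76 CPM per kb. Averaged over the 4 groups, each HOX promoter stood below the median promoter: the lowest, HOXA10, exceeded 9.99% of promoters and the highest, HOXD8 at 0 bp, exceeded 38.8%. Of the 18, 5 lay under the lower quartile of all promoters. Bulk values cannot tell a region open in few cells from one slightly open in many.

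**Figure D1:**
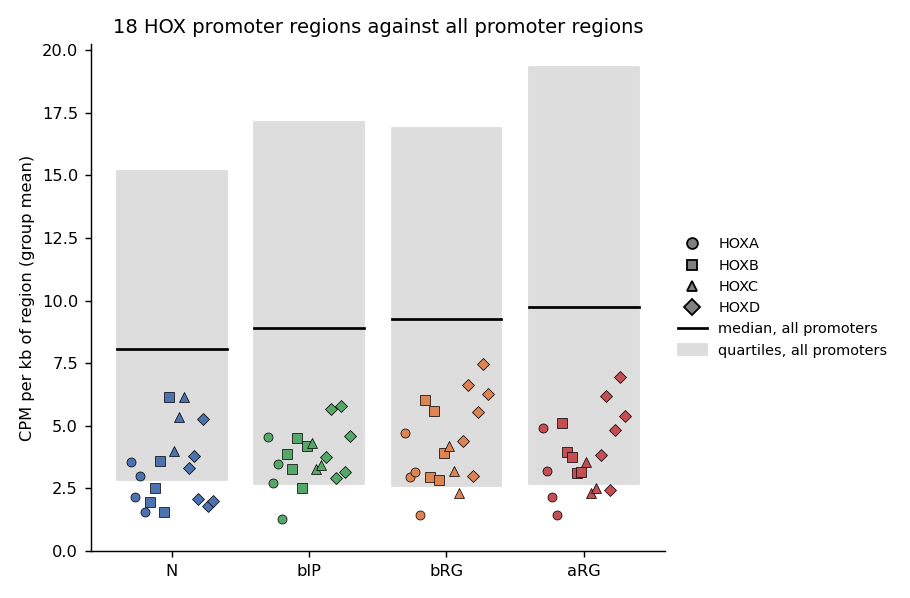
Accessibility per kb of the 18 HOX promoter regions (points, group means in CPM per kb, shaped by cluster) in N, bIP, bRG and aRG, over the median (line) and quartiles (grey) of all promoter regions. Every HOX point lies under the median line of its cell type, which stands at 8.07 CPM per kb in N and 9.76 CPM per kb in aRG.

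Distal HOX regions were placed differently among their kind. Their 11 values had medians of 2.93 CPM per kb in N, 4.08 in bIP, 4.01 in bRG and 4.68 in aRG, whereas all 183586 distal regions had medians of 2.31, 1.98, 1.73 and 1.70 CPM per kb in the same order. Nearly all of these HOX regions sit inside the gene-dense clusters, and all distal regions are spread over the genome. By cluster, HOXD had the highest median in each of bIP, bRG and aRG (5.27, 6.18 and 5.12 CPM per kb), and HOXC had the highest in N (3.98 CPM per kb).

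Summed over each cluster and averaged over the libraries of both series, 3 clusters were lowest in neurons and HOXC was highest there. Per kb, the median of all promoters was lowest in N too (8.07 CPM, against 9.76 CPM in aRG). That of all distal regions was highest in N (2.31 CPM, against 1.70 CPM in aRG). The 10 HOXD regions together had 31.8 ± 2.92 CPM in N, 45.5 ± 8.07 CPM in bIP, 51.8 ± 1.20 CPM in bRG and 45.2 ± 3.42 CPM in aRG (SD over libraries). No N library reached any library of the other types for this sum: the highest N value was 35.5 CPM and the lowest of the others was 37.9 CPM, in bIP. For HOXB the sums were 27.9 ± 2.31 CPM in N, 36.6 ± 6.58 CPM in bIP, 38.2 ± 1.80 CPM in bRG and 37.6 ± 2.85 CPM in aRG, with N and bIP overlapping. HOXA gave 13.9 ± 1.88, 16.8 ± 2.98, 17.4 ± 1.21 and 17.3 ± 0.499 CPM in N, bIP, bRG and aRG. HOXC ran the other way, at 20.8 ± 1.31, 17.8 ± 4.06, 16.7 ± 1.95 and 14.9 ± 1.93 CPM. Its N libraries (19.2 to 22.3 CPM) all stood above its aRG libraries (12.9 to 16.8 CPM) and overlapped its bIP libraries (14.1 to 23.6 CPM). The order against bIP depended on the series. In the second series HOXC had 21.1 and 20.7 CPM in N and 20.4 and 23.6 CPM in bIP. In the first it had 19.2 and 22.3 CPM in N and 14.1 to 16.0 CPM in bIP. HOXA in the first series overlapped too, at 13.6 and 16.3 CPM in N and 13.45 to 16.4 CPM in bIP.

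Differences between cell types were tested region by region with edgeR's quasi-likelihood test, fitted on all 14 libraries and 200931 regions with the library series as a term, and p-values were adjusted over all of these regions by Benjamini-Hochberg. All 29 HOX regions passed the filter on low counts. A region is called higher or lower when its adjusted p is under 0.05. Between at least 1 pair of cell types, 20 of the 29 HOX regions passed, beside 80.6% of all regions tested, and 9 passed in none (HOXA7, HOXA10, both HOXB7 regions, HOXB8, HOXC5, HOXD3 at 0 bp, HOXD8 at 2366 bp and HOXD9). Among promoters alone, 12 of the 18 HOX promoters passed, beside 62.5% of all promoters.

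Between neurons and intermediate progenitors, 13 of the 29 HOX regions were lower and 3 were higher in N. Over all regions, 26.4% were lower and 28.8% were higher in N. The median log2 difference was -0.37 over the HOX regions and -0.02 over all regions, and among promoters it was -0.33 for HOX and -0.13 for all. Under a loess scaling it was -0.267 over the HOX regions and -0.055 over all regions. Among promoters alone, 6 of the 18 HOX promoters were lower and 3 higher, beside 22.9% lower and 14.3% higher of all promoters, and 7 of 11 distal HOX regions were lower and none higher, beside 26.8% and 30.4% of all distal regions. HOXD contributed 7 of its 10 regions to the lower group, HOXB 4 of 9, HOXA and HOXC 1 of 5 each. The higher regions were HOXC13 at 0 bp, HOXC8 at 0 bp and HOXB13. With the libraries of the second series alone (2 against 2), 8 were lower and none higher, where 46.1% of all regions were called in either direction.

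Against apical radial glia, 12 HOX regions were lower and 4 were higher in N, where 29.2% of all regions were lower and 37.1% were higher. Among promoters, 8 of 18 HOX promoters were lower and 3 higher, against 35.1% lower and 17.2% higher of all promoters. Among promoters the median log2 difference was -0.27 for HOX and -0.26 for all. Over all kinds of region it was -0.40 for HOX and 0.18 for the table, which is mostly distal, a median that became 0.05 under a loess scaling, while that of the HOX regions became -0.60. In the second series alone, with 2 N libraries against 1 of aRG, 5 were lower and none higher, where 46.5% of all regions were called in either direction. Markers of mesenchyme and neural crest, cell types that use HOX genes in the trunk, were lower too: of 11 measured genes 10 were lower and none higher in N than in aRG, with summed promoter levels of 50.0 to 63.2 CPM in N libraries, 70.4 to 101.5 CPM in bIP, 112 to 118 CPM in bRG and 109 to 121 CPM in aRG, and none was at 0. Their part in the HOX differences was not tested.

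Against basal radial glia, 10 HOX regions were lower and 3 higher in N, beside 25.8% and 32.2% of all regions. Without bRG replicate 1, which leaves 1 bRG library, fewer HOX regions and fewer of all regions were called. The median log2 difference of the HOX regions was then -0.46, against -0.38 with all libraries. Among promoters, 6 of 18 HOX promoters were lower and 3 higher, beside 21.8% and 16.6% of all promoters.

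**Figure D2:**
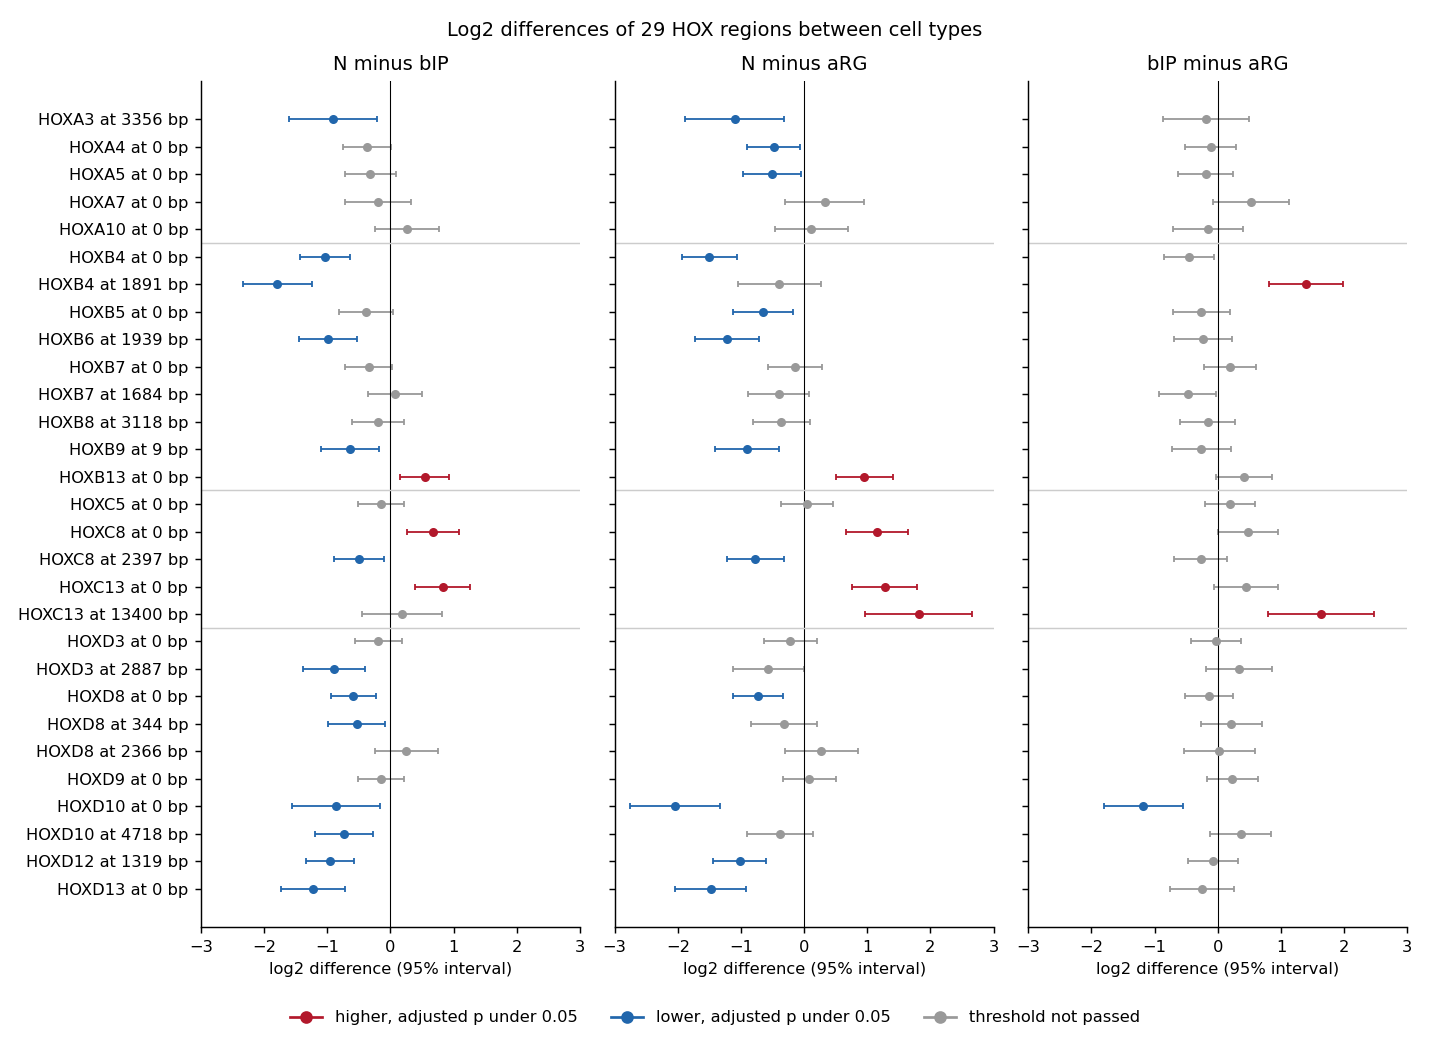
Log2 differences of the 29 HOX regions (rows, by cluster and paralog number) for N minus bIP, N minus aRG and bIP minus aRG, with 95% intervals from the edgeR fit; red and blue mark adjusted p under 0.05. In the N columns blue points hold 13 and 12 rows and red points 3 and 4, and the bIP minus aRG column has 3 coloured points.

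HOXB4, a paralog group 4 gene known from hindbrain patterning and blood stem cell growth, was lower in N than in all 3 other types at its promoter region (chr5:33251240-33252396). It had 1.68, 2.1, 2.74 and 2.48 CPM in N, 3.29, 3.36, 3.95, 6.67 and 5.12 CPM in bIP, 7.12 and 6.84 CPM in bRG and 4.66, 5.67 and 7.45 CPM in aRG. The 4 N libraries lay below all others, with values in bIP between those of N and bRG. N was lower than bIP (log2 difference -1.04 ± 0.19 SE, adjusted p = 5.03e-05), than bRG (log2 difference -1.36 ± 0.24 SE, adjusted p = 2.96e-05) and than aRG (log2 difference -1.50 ± 0.21 SE, adjusted p = 8.12e-07, edgeR quasi-likelihood test in each). These 3 calls held in every alternative fit that included the region.

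The second HOXB4 region, 1891 bp away at chr5:33253819-33254309, was the one HOX region called higher in bIP than in each of the other 3 types. Its values were 0.779, 1.29, 1.87 and 0.75 CPM in N, 2.46, 2.72, 4.23, 5.74 and 4.39 CPM in bIP, 1.67 and 1.92 CPM in bRG and 1.26, 1.18 and 1.81 CPM in aRG. All 5 bIP libraries stood above every library of the other 3 types. bIP was higher than bRG (log2 difference 1.43 ± 0.34 SE, adjusted p = 0.00174) and than aRG (log2 difference 1.40 ± 0.29 SE, adjusted p = 0.000249), and N was lower than bIP (log2 difference -1.79 ± 0.27 SE, adjusted p = 3.11e-06, all by edgeR's quasi-likelihood test). Within the second and the first series taken alone, the bIP minus aRG difference was 1.48 ± 0.43 and 1.32 ± 0.34 (log2, SE). The HOXB4 promoter had the other sign between bIP and aRG, a log2 difference of -0.46 ± 0.19, which missed the threshold (edgeR adjusted p = 0.0525), and the contrast of the 2 regions was not tested.

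Further along HOXB, called and uncalled regions were mixed. HOXB6 at 1939 bp (chr5:33227282-33228101) had 1.4, 2.44, 1.87 and 1.08 CPM in N, 3.17, 3.43, 3.67, 3.71 and 2.75 CPM in bIP, 2.98 and 3.04 CPM in bRG and 4.34, 3.99 and 3.63 CPM in aRG, so that no N library reached another type. It was lower in N than in bIP (log2 difference -0.99 ± 0.22 SE, adjusted p = 0.000544), in bRG (log2 difference -0.95 ± 0.29 SE, adjusted p = 0.00761) and in aRG (log2 difference -1.23 ± 0.25 SE, adjusted p = 0.000108) by edgeR's quasi-likelihood test. HOXB9, listed at 9 bp, had 2.73, 2.51, 2.64 and 1.17 CPM in N, 4.16, 3.94, 4.09, 3.36 and 2.7 CPM in bIP, 3.33 and 4.92 CPM in bRG and 4.7, 5.61 and 3.28 CPM in aRG. One N library, replicate 4, was far below the other 3, of which replicate 1 alone stood above the lowest bIP library. The edgeR differences were -0.64 ± 0.22 against bIP (adjusted p = 0.0158), -1.13 ± 0.29 against bRG (adjusted p = 0.00159; 0.0712 without bRG replicate 2) and -0.91 ± 0.25 against aRG (adjusted p = 0.00226). HOXB5 averaged 3.66 ± 0.57 CPM in N and 5.77 ± 0.59 CPM in aRG, and its call against aRG (adjusted p = 0.0165 by edgeR) was lost without aRG replicate 3 (adjusted p = 0.0704). HOXB8 at 3118 bp averaged 2.8 ± 0.186 CPM in N, 3.24 ± 0.559 in bIP, 3.56 ± 0.26 in bRG and 3.66 ± 0.52 in aRG, and passed in no comparison of cell types.

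At the far end of the cluster, apart from the other HOXB regions, HOXB13 (chr5:33102222-33103221) was higher in N. This posterior gene is best known in the prostate. It had 5.69, 7.2, 4.75 and 6.89 CPM in N, 3.25, 3.94, 4.44, 4.68 and 4.68 CPM in bIP, 4.14 and 3.65 CPM in bRG and 2.76, 3.3 and 3.33 CPM in aRG. The lowest N library stood just above the highest bIP library, and well above all aRG libraries. edgeR gave log2 difference 0.54 ± 0.19 SE, adjusted p = 0.0161 against bIP, log2 difference 0.70 ± 0.26 SE, adjusted p = 0.0241 against bRG and log2 difference 0.95 ± 0.22 SE, adjusted p = 0.000503 against aRG. The call against bIP was lost without bIP replicate 1 or N replicate 2 (adjusted p = 0.058 and 0.0682), and that against bRG was lost under 5 single-library omissions (aRG 2, bIP 4, bRG 1, bRG 2 or N 4, adjusted p 0.0706 to 0.161) and under DESeq2's size factors, loess scaling or no filter (0.0524 to 0.0771). Within the second series the N minus bIP difference was 0.32 ± 0.25 and within the first 0.74 ± 0.24 (log2, SE).

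HOXD, whose posterior genes shape limbs and digits, held 7 of the 13 regions lower in N than in bIP, from HOXD13 at one end to HOXD3 at the other. HOXD13, the digit gene at chr2B:62770286-62771465, had 1.95, 3.67, 2.45 and 1.31 CPM in N, 3.86, 4.53, 5.27, 5.74 and 7.67 CPM in bIP, 7.33 and 7.49 CPM in bRG and 5.64, 6.86 and 6.61 CPM in aRG. N stayed below every other library, with bIP replicate 1 the nearest. The edgeR differences were -1.23 ± 0.25 against bIP (adjusted p = 0.000138), -1.62 ± 0.32 against bRG (adjusted p = 9.69e-05) and -1.48 ± 0.27 against aRG (adjusted p = 3.23e-05). Within the second series the N minus bIP difference was -1.83 ± 0.30 and within the first -0.73 ± 0.28 (log2, SE).

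Next to it, HOXD12 at 1319 bp (chr2B:62775131-62776384) had 3.35, 3.94, 3.36 and 3.38 CPM in N, 7.18, 6.4, 4.58, 7.16 and 8.25 CPM in bIP, 7.53 and 7.72 CPM in bRG and 7.38, 6.79 and 6.86 CPM in aRG. The N libraries were close to each other and below all others. Its edgeR differences were -0.95 ± 0.19 against bIP (adjusted p = 0.000103), -1.07 ± 0.24 against bRG (adjusted p = 0.000487) and -1.02 ± 0.21 against aRG (adjusted p = 0.000118). In mouse, Hoxd12 acts with Hoxd13 in the limb.

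HOXD10, a gene of lumbar motor neurons in mouse, had the most negative log2 difference of the 29 regions between N and aRG, at the narrowest of them (247 bp, chr2B:62794506-62794752). Its values were 0.351, 0.272, 0.816 and 0.328 CPM in N, 0.491, 0.776, 0.624, 1.1 and 0.917 CPM in bIP, 1.87 and 1.83 CPM in bRG and 1.1, 1.93 and 2.11 CPM in aRG. All bRG and aRG libraries stood above all N and bIP libraries, by the narrowest margin between aRG 1 and bIP 4, and N 3 lay within the bIP range. N was lower than aRG (log2 difference -2.04 ± 0.34 SE, adjusted p = 1.1e-05) and bRG (log2 difference -1.75 ± 0.39 SE, adjusted p = 0.000364), and bIP was lower than aRG (log2 difference -1.18 ± 0.30 SE, adjusted p = 0.00218) by edgeR's quasi-likelihood test. It was called lower in N than in bIP as well (adjusted p = 0.0315 by edgeR), but not without bIP 2, bIP 4, N 1, N 2 or N 4 (adjusted p 0.0604 to 0.102). Counts at this region were few: 4 to 17 in N libraries and 28 to 43 in aRG libraries.

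The promoter of HOXD8 (chr2B:62807318-62808859) had the highest CPM per kb of the HOX promoters in the mean over the 4 cell types, though not in any 1 of them. It had 6.16, 6.25, 6.05 and 4.92 CPM in N, 7.94, 7.76, 7.14, 10.6 and 10.2 CPM in bIP, 10.5 and 10.0 CPM in bRG and 9.2, 9.79 and 9.6 CPM in aRG. All N libraries were lower than all others. The edgeR differences were -0.59 ± 0.17 against bIP (adjusted p = 0.00496; 0.252 and a difference of -0.20 under loess scaling), -0.74 ± 0.23 against bRG (adjusted p = 0.0071; 0.0552 without bRG replicate 1) and -0.73 ± 0.19 against aRG (adjusted p = 0.00172). Within the second series N minus bIP was -0.93 ± 0.22 and within the first -0.30 ± 0.21 (log2, SE). HOXD9 beside it passed in no comparison of cell types, with 6.78, 9.03, 7.73 and 7.78 CPM in N, 7.37, 6.08, 7.56, 9.76 and 12.3 CPM in bIP, 8.69 and 7.87 CPM in bRG and 5.92, 6.3 and 9.36 CPM in aRG. The 4 groups overlapped there, and the N minus aRG difference was 0.09 ± 0.20 (log2, SE).

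HOXD3 at 2887 bp had 1.32, 0.951, 2.16 and 1.12 CPM in N, 2.12, 2.07, 2.29, 3.67 and 2.51 CPM in bIP, 2.88 and 2.72 CPM in bRG and 1.54, 2.06 and 2.3 CPM in aRG, and bIP replicate 4 stood above the other bIP libraries. One N library, replicate 3, fell within the bIP range, and the others were below it. N was lower than bIP (log2 difference -0.90 ± 0.24 SE, adjusted p = 0.00245) and bRG (adjusted p = 0.0334; 0.136 and 0.0934 without bRG 1 and bRG 2) by edgeR's test. HOXD10 at 4718 bp averaged 1.9 ± 0.541 CPM in N and 3.12 ± 0.313 CPM in bIP (log2 difference -0.74 ± 0.22 SE, adjusted p = 0.0062 by edgeR; -0.50 ± 0.30 within the second series and -0.96 ± 0.29 within the first). HOXD8 at 344 bp averaged 2.2 ± 0.608 CPM in N and 3.05 ± 0.75 CPM in bIP. Its edgeR call (adjusted p = 0.0408) was lost without any 1 of aRG 1, bIP 1, 3, 4 or 5, either bRG library, N 1 or N 4 (0.0516 to 0.176). HOXD3 at 0 bp passed in no comparison of cell types, at 4.29 ± 0.066 CPM in N, 4.89 ± 0.607 in bIP, 5.74 ± 0.757 in bRG and 4.97 ± 0.683 in aRG.

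HOXC was the cluster in which higher values in N outnumbered lower ones among its called regions, 3 to 1 against aRG and 2 to 1 against bIP. Over all regions, 37.1% were higher and 29.2% lower against aRG, and 28.8% and 26.4% against bIP. HOXC13, a hair and nail gene of paralog group 13, had at its promoter region (chr12:31060002-31060984) 6.27, 8.22, 4.99 and 4.64 CPM in N, 2.65, 2.98, 2.77, 4.28 and 4.2 CPM in bIP, 2.17 and 2.34 CPM in bRG and 2.25, 2.37 and 2.79 CPM in aRG. N libraries stood above all others, most clearly replicates 1 and 2 of the first series. The edgeR differences were 0.83 ± 0.21 against bIP (adjusted p = 0.00161), 1.46 ± 0.31 against bRG (adjusted p = 0.000267) and 1.27 ± 0.25 against aRG (adjusted p = 8.62e-05). The N minus bIP difference depended on the series: it was 0.18 ± 0.25 in the second and 1.37 ± 0.23 in the first (log2, SE). A test of that dependence gave a difference of -1.18 ± 0.34 (adjusted p = 0.026, edgeR over all regions).

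The region 13400 bp from HOXC13 (chr12:31073775-31074648) had the lowest CPM per kb of the HOX regions in bIP, bRG and aRG and the second lowest, above HOXA3, in N, with 1.87, 1.29, 0.816 and 0.61 CPM in N, 0.945, 1.16, 0.971, 0.928 and 1.06 CPM in bIP, 0.404 and 0.609 CPM in bRG and 0.474, 0.125 and 0.343 CPM in aRG. All bIP libraries stood above the radial glia libraries, and N libraries reached from the level of bRG to well above bIP. bIP and N were both higher than aRG (log2 difference 1.63 ± 0.41 SE, adjusted p = 0.00163, and log2 difference 1.82 ± 0.41 SE, adjusted p = 0.000397, edgeR). The aRG libraries held 12, 2 and 7 counts here, and a count of 2 lies under the 3 counts taken as the detection floor, so these differences rest on few reads. Within the second series alone they were 1.52 ± 0.62 for bIP and 1.04 ± 0.65 for N, and within the first 1.61 ± 0.46 and 2.27 ± 0.46. Within N, the second series was lower than the first (log2 difference -1.18 ± 0.41, adjusted p = 0.0452, edgeR).

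HOXC8, which specifies forelimb-level motor neurons in mouse and chick, had 2 regions that moved in opposite directions. At 0 bp (chr12:30989492-30990381) it had 3.78, 4.96, 4.22 and 6.05 CPM in N, 2.8, 2.39, 2.77, 2.65 and 3.91 CPM in bIP, 2.68 and 3.00 CPM in bRG and 1.62, 2.06 and 2.55 CPM in aRG. N was above bRG and aRG in every library, and bIP replicate 5 alone entered the N range. edgeR gave log2 difference 0.67 ± 0.20 SE, adjusted p = 0.00544 against bIP, log2 difference 0.89 ± 0.28 SE, adjusted p = 0.00747 against bRG (0.0758 without bRG 1 and 0.0611 without N 4) and log2 difference 1.15 ± 0.24 SE, adjusted p = 0.000145 against aRG. At 2397 bp (chr12:30992587-30993534) the values were 2.18, 2.65, 3.36 and 2.91 CPM in N, 3.1, 4.01, 2.91, 3.84 and 5.21 CPM in bIP, 4.34 and 4.96 CPM in bRG and 3.71, 4.74 and 5.1 CPM in aRG. There N lay below aRG in every library and overlapped bIP. N was lower than aRG (log2 difference -0.77 ± 0.22 SE, adjusted p = 0.00317), and the call against bIP (adjusted p = 0.033) was lost without bIP 2, bIP 5 or N 1 (0.084 to 0.108, edgeR). HOXC5, the remaining HOXC region, had 5.06, 5.23, 7.73 and 6.52 CPM in N, 5.25, 5.43, 4.71, 8.7 and 9.17 CPM in bIP, 5.76 and 7.21 CPM in bRG and 4.86, 5.67 and 5.98 CPM in aRG and passed in no comparison of cell types. Its libraries separated by series within N and within bIP.

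Paralog numbers did not fix the direction. Of the paralog group 13 promoters measured, those of HOXB13 and HOXC13 were higher and that of HOXD13 was lower in N than in aRG. In paralog groups 3 to 5, 5 of 9 regions were lower and none higher in N than in aRG. Groups 6 to 8 had 3 of 10 lower and 1 higher, and groups 9 to 13 had 4 of 10 lower and 3 higher. In the same comparison 29.2% of all regions were lower and 37.1% higher, and 35.1% and 17.2% of all promoters. Differences between the paralog groups were not tested. The map along the clusters shows the higher regions at the HOXB13 end of HOXB and in HOXC.

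**Figure D3:**
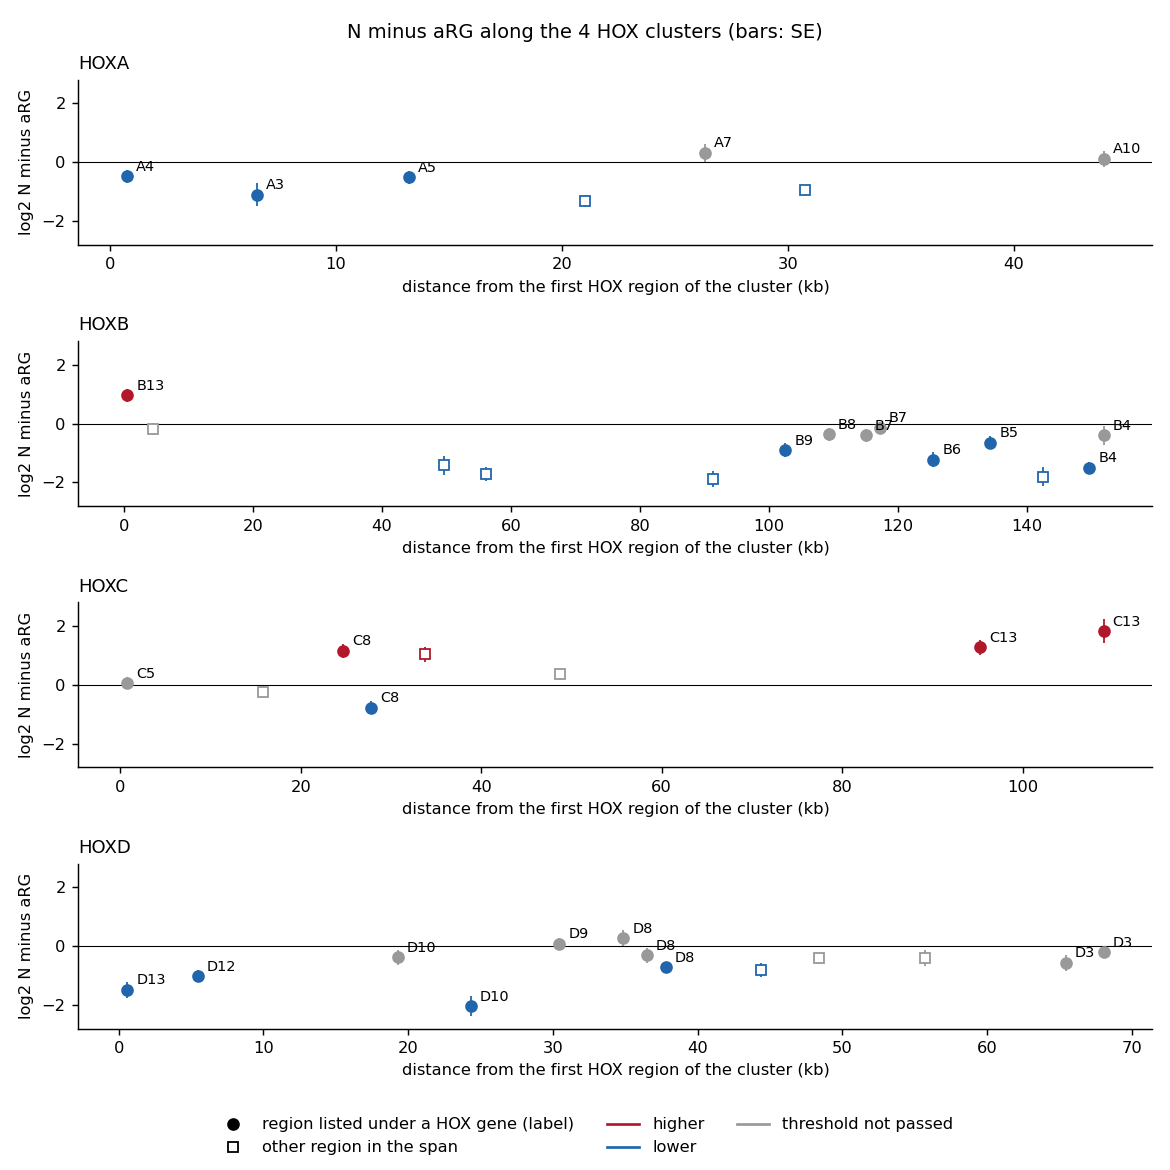
Log2 difference of N minus aRG (y axis, bars SE) along each HOX cluster, by distance in kb from the first HOX region; circles are HOX regions labelled by cluster and number, and open squares are other regions of the same span. HOXC holds 3 higher circles and 1 higher square, HOXB has its 1 higher region at the HOXB13 end, and HOXA and HOXD hold none.

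HOXA had 3 of its 5 regions lower in N than in aRG and none higher, beside 29.2% and 37.1% of all regions. Of these 3 calls 2 sat close to the threshold. HOXA4, a gene of the neck vertebrae in mouse, at chr7:27771273-27772803, had 5.73, 6.72, 4.37 and 4.88 CPM in N, 6.39, 6.66, 5.62, 7.55 and 8.64 CPM in bIP, 7.17 and 7.26 CPM in bRG and 7.46, 6.98 and 8.13 CPM in aRG. All N libraries lay below the aRG libraries, and N 1 and N 2 lay within the bIP range. The call against aRG (log2 difference -0.48 ± 0.20 SE, adjusted p = 0.04, edgeR) was lost without aRG 1, aRG 3, bIP 1, bIP 2 or either bRG library (adjusted p 0.0522 to 0.132), and the difference was -0.81 ± 0.28 within the second series and -0.22 ± 0.23 within the first. HOXA5, needed for lung development in mouse, had 3.19, 3.73, 3.02 and 2.11 CPM in N, 4.2, 4.46, 2.91, 3.8 and 3.48 CPM in bIP, 3.89 and 4.35 CPM in bRG and 5.21, 4.86 and 3.28 CPM in aRG. Its N and aRG ranges overlapped, and its calls against aRG (adjusted p = 0.0493) and bRG (0.0444, edgeR) were lost in 7 and 8 of the 14 omissions of 1 library. For aRG these were aRG 1, bIP 1, 2 and 5, N 1 and both bRG libraries (0.0517 to 0.167), and for bRG they were aRG 1 and 3, bIP 1 and 2, N 1 and 4 and both bRG libraries (0.0543 to 0.208).

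HOXA3 at 3356 bp, which by position sits between the HOXA4 and HOXA5 regions, had 0.584, 0.407, 1.01 and 0.281 CPM in N, 1.13, 1.36, 1.32, 1.02 and 0.869 CPM in bIP, 1.57 and 0.89 CPM in bRG and 1.42, 1.75 and 0.833 CPM in aRG. N replicate 3 overlapped the other types, and the other N libraries did not. Mouse embryos need Hoxa3 for the thymus and parathyroid. N was lower than aRG (log2 difference -1.10 ± 0.38 SE, adjusted p = 0.0128) by edgeR's test. Within the second series that difference was -0.37 ± 0.57 (adjusted p = 0.602, edgeR) and within the first -1.60 ± 0.45 (0.00267). Calls against bIP (adjusted p = 0.0264) and bRG (0.0183) were lost without N 1, N 2 or N 4 (0.0641 to 0.0901) and without bRG 1 (0.281). HOXA7 had 1.71, 2.58, 3.17 and 2.58 CPM in N, 1.32, 1.75, 1.87, 3.89 and 5.74 CPM in bIP, 2.58 and 2.72 CPM in bRG and 1.22, 2.00 and 2.21 CPM in aRG, with the 2 highest values in bIP 4 and 5. HOXA10 averaged 2.4 ± 0.401 CPM in N, 1.98 ± 0.279 in bIP, 2.17 ± 1.22 in bRG and 2.17 ± 0.43 in aRG and passed in no comparison.

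**Figure D4:**
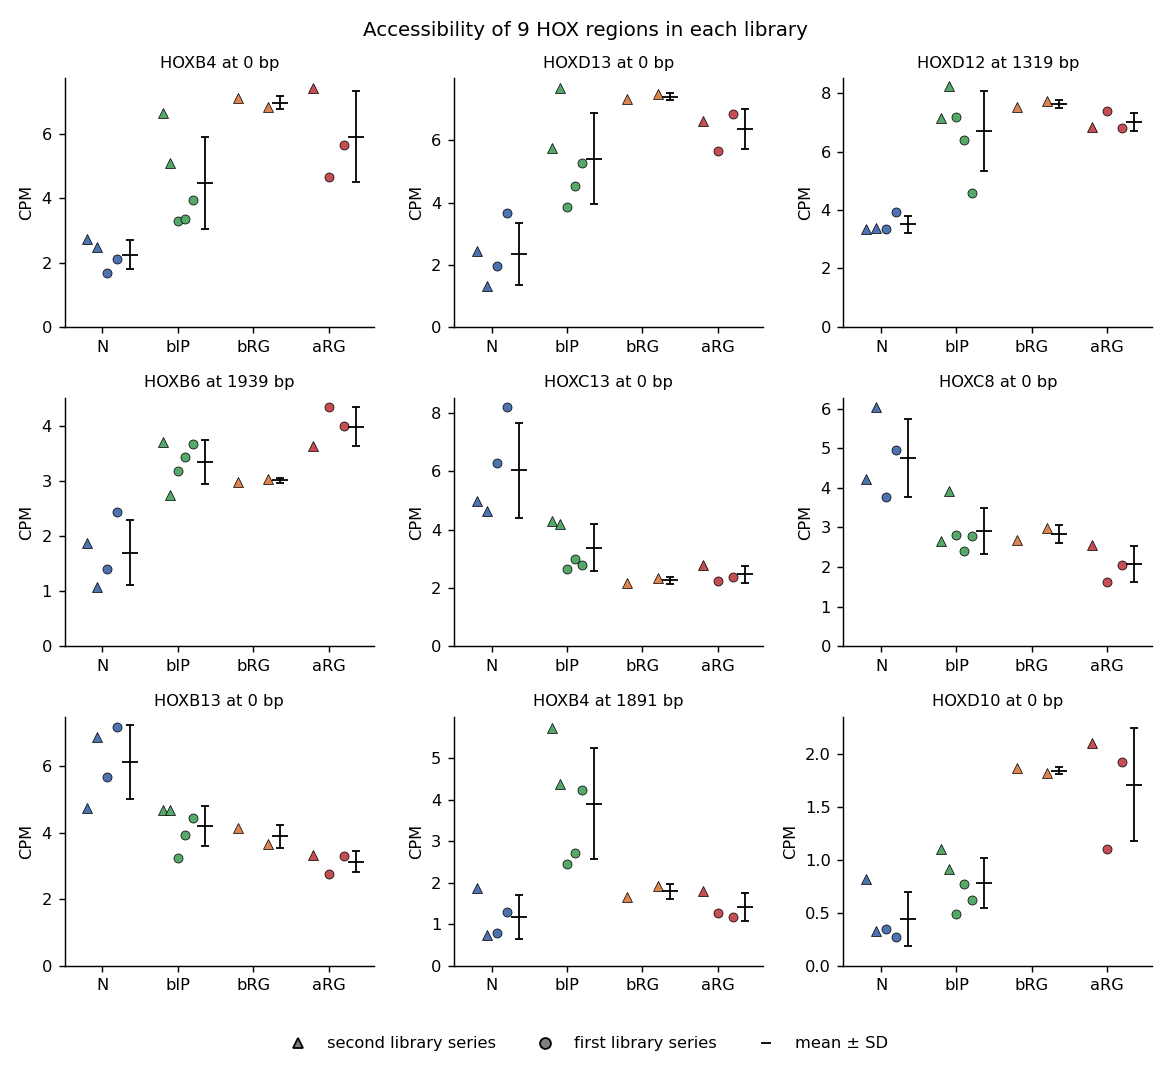
CPM of 9 HOX regions in each library (triangles second series, circles first series) for N, bIP, bRG and aRG, with the mean and SD beside the points. HOXB4 at 0 bp, HOXD13, HOXD12 and HOXB6 are lowest in N, HOXC13 and HOXB13 at 0 bp are highest in N, and HOXB4 at 1891 bp is highest in bIP, between 2.46 and 5.74 CPM there.

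Between the progenitor types few HOX regions passed. bIP differed from aRG at 3 of the 29 regions, the 2 higher (HOXB4 at 1891 bp and HOXC13 at 13400 bp) and 1 lower (HOXD10 at 0 bp) described above, while 24% of all regions were higher and 20.9% were lower in bIP. This count became 5 without bIP 4, N 3 or N 4. Of all regions 44.2%, 50.2% and 48.9% were then called in either direction, against 44.9% with all libraries. Among promoters, 1 of the 18 HOX promoters was lower and 0 higher, beside 18.4% and 11.5% of all promoters. From bRG, bIP differed at 1 region, HOXB4 at 1891 bp, beside 20.4% of all regions higher and 16.1% lower. This count of 1 became 2 without aRG 2, N 2, bIP 4 or N 4, and 3 without N 3. Of all regions 35.7%, 37.9%, 33.5%, 39.4% and 41.8% were called in these fits, in that order, against 36.5% with all libraries. None of the 18 HOX promoters passed against bRG, beside 10.88% higher and 10.15% lower of all promoters. The median log2 difference of the HOX regions was -0.07 against aRG and 0.04 against bRG, and 25 and 21 of the 29 had a 95% interval within 2-fold in either direction. Under a loess scaling these medians became -0.274 and -0.133, and those of all regions were -0.041 and -0.004.

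Between bRG and aRG no HOX region passed, higher or lower, and neither did any region of the table (0% and 0%) by edgeR. At an unadjusted p under 0.05 there were 0 HOX regions and 8193 regions in all, and DESeq2 called 0 HOX regions. The median log2 difference of the HOX regions was 0.01, and 24 of 29 had a 95% interval within 2-fold. With 2 bRG libraries from 1 series and 1 aRG library in that series, differences inside these intervals were not detectable.

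Some HOX regions differed between the library series. In the fit over all cell types, 5 HOX regions were higher and none lower in the second series than in the first, beside 9.36% higher and 6.48% lower of all regions. Without bIP replicate 4 the count was 3 and without N replicate 4 it was 9. Of all regions 11.4% and 15.2% were called in these 2 fits, against 15.8% with all libraries. HOXB7 at 0 bp (chr5:33218768-33220047) had 3.82, 3.87, 5.62 and 5.11 CPM in N 1 to 4, 3.29, 3.94, 4.78, 8.66 and 8.3 CPM in bIP 1 to 5, 6.97 and 7.35 CPM in bRG and 3.47, 3.8 and 7.05 CPM in aRG 1 to 3. Every library of the second series, N 3 and 4 included, exceeded every library of the first (log2 difference 0.85 ± 0.16 SE, adjusted p = 0.000577, edgeR). The nearby HOXB7 region at 1684 bp was not called, with 3.35, 3.73, 3.46 and 2.86 CPM in N, 2.68, 2.13, 4.51, 3.53 and 3.09 CPM in bIP, 3.38 and 3.37 CPM in bRG and 4.46, 4.43 and 4.41 CPM in aRG.

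HOXA7 (second minus first series, log2 difference 0.94 ± 0.22 SE, adjusted p = 0.00488), HOXB4 at 0 bp (log2 difference 0.61 ± 0.16 SE, adjusted p = 0.0102), HOXC5 (log2 difference 0.55 ± 0.15 SE, adjusted p = 0.0153) and HOXD8 at 2366 bp (log2 difference 0.67 ± 0.21 SE, adjusted p = 0.0338) were the others by edgeR. Omitting bIP 4 ended the calls of HOXB4 and HOXC5 (edgeR adjusted p = 0.055 and 0.0517), and omitting bIP 2, bIP 5, N 1 or N 2 ended that of HOXD8 (0.0587 to 0.0881). HOXD8 at 2366 bp, which is 256 bp wide and had the highest CPM per kb of the HOX regions in N and in the mean over the 4 cell types, had 1.48, 1.02, 3.02 and 2.81 CPM in N, 1.47, 1.1, 1.59, 1.85 and 2.12 CPM in bIP, 1.67 and 1.87 CPM in bRG and 1.62, 1.31 and 1.62 CPM in aRG. Its 2 highest libraries were the N libraries of the second series. Within bIP alone, 5 of the 29 HOX regions were higher in the second series and none lower, beside 13.9% of all regions called in either direction: HOXA7 (log2 difference 1.57 ± 0.28), HOXB7 (1.10 ± 0.22), HOXC5 (0.80 ± 0.21), HOXB4 at 0 bp (0.75 ± 0.23) and HOXD9 (0.65 ± 0.21). Within N there was 1 higher, HOXD8 at 2366 bp (1.18 ± 0.32), and 1 lower, HOXC13 at 13400 bp, beside 15.4% of all regions called. The labels say nothing of what separates the 2 series, and culture, sort, preparation and sequencing cannot be told apart.

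**Figure D5:**
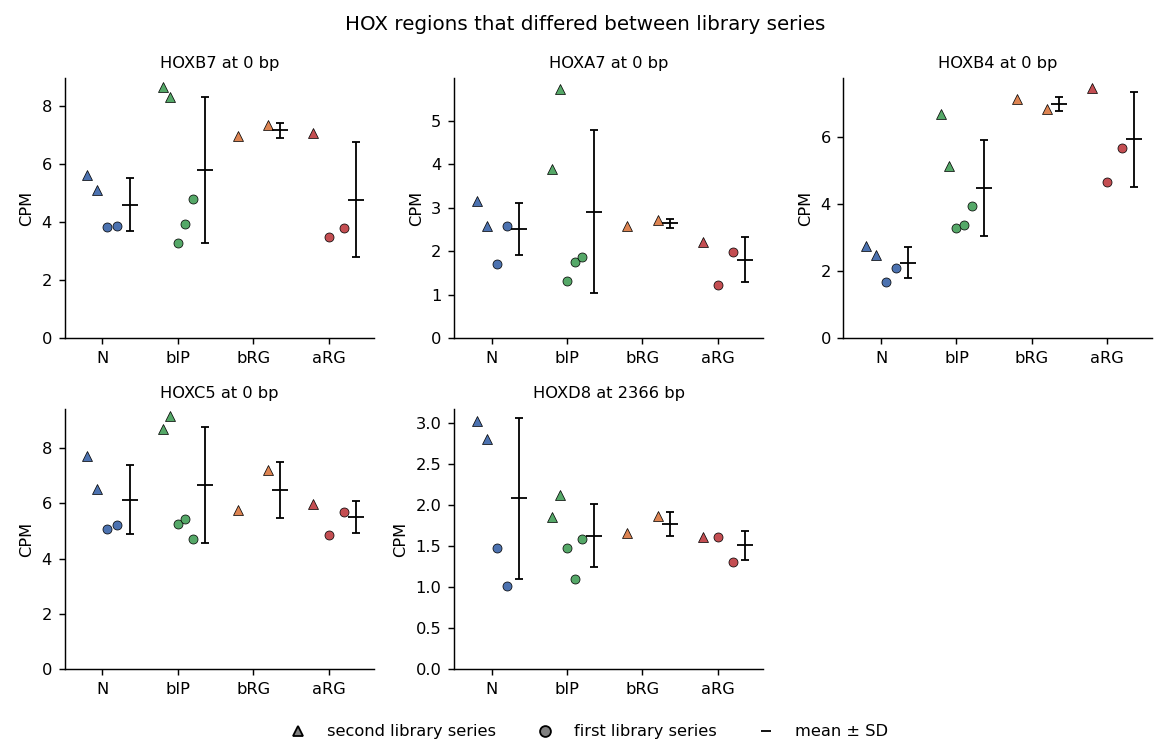
CPM of the 5 HOX regions called higher in the second library series (triangles) than in the first (circles), by library and cell type, with mean and SD over both series. For HOXB7 and HOXC5 all triangles lie above all circles, and for HOXA7 the widest gap is in bIP, at 3.89 and 5.74 CPM against 1.32 to 1.87 CPM.

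Inside the 4 HOX spans lay 13 more regions listed under noncoding genes and microRNAs. In N compared with aRG, 7 were lower and 1 higher, beside 29.2% and 37.1% of all regions. Compared with bIP, 8 were lower and 1 higher, beside 26.4% and 28.8% of all regions. A region 2007 bp from MIR10B, a microRNA gene of the HOXD cluster, was high in bIP like HOXB4 at 1891 bp, with 0.779, 1.02, 1.1 and 1.22 CPM in N, 2.68, 2.52, 2.98, 3.75 and 3.76 CPM in bIP, 1.52 and 1.92 CPM in bRG and 1.07, 1.25 and 1.57 CPM in aRG. All bIP libraries stood above all others, and edgeR gave log2 difference 1.25 ± 0.24 SE, adjusted p = 0.000108 for bIP against aRG, log2 difference 1.11 ± 0.29 SE, adjusted p = 0.003 for bIP against bRG (0.0682 without bRG 1) and log2 difference -1.66 ± 0.22 SE, adjusted p = 7.26e-07 for N against bIP. In HOXB, the region 3856 bp from MIR196A1 averaged 1.03 ± 0.408 CPM in N, 2.09 ± 0.504 in bIP, 2.6 ± 0.174 in bRG and 4.13 ± 1.33 in aRG (log2 difference -1.88 ± 0.26 SE, adjusted p = 6.03e-07 for N against aRG, edgeR). The higher region was that of HOXC-AS1, an antisense transcript of HOXC, with 4.9 ± 1.82 CPM in N and 2.05 ± 0.267 CPM in aRG (log2 difference 1.03 ± 0.26 SE, adjusted p = 0.00103, edgeR). Its N 1 and N 2 values (3.90 and 2.85 CPM) were below those of bIP 4 and bIP 5 (4.73 and 5.36 CPM).

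Genes that act with or on HOX genes were read at their best covered promoter region. Of 6 measured TALE cofactors, homeodomain partners of HOX proteins, 3 were lower and none higher in N than in aRG, among them PBX2 (log2 difference -1.18 ± 0.17, adjusted p = 1.74e-06, edgeR). Among 17 Polycomb genes, 8 were lower and none higher, with PHF19 at -1.26 ± 0.18 (adjusted p = 1.32e-06, edgeR) and CBX2 at -1.02 ± 0.17 (7.07e-06). Of 10 CDX and retinoic acid genes, which set HOX expression along the trunk, 5 were lower and 1 higher, led by the receptor RARB (-1.20 ± 0.17, edgeR adjusted p = 8.95e-07). The 7 Trithorax genes and H3K27 demethylases had 3 lower and none higher. Their medians, from -0.26 to -0.40, stood near that of all promoters, -0.26, in the same comparison. Over all promoters, 35.1% were lower and 17.2% higher in N than in aRG. Of 26 listed noncoding RNAs and microRNAs of the clusters 4 had such a promoter, 1 lower and 1 higher. Genes flanking the HOX clusters gave 1 lower and 1 higher of 8, with a median of -0.27.

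Among markers of other tissues, the mesenchyme and neural crest list had a median log2 difference of -1.09 between N and aRG, with FOXC1 at -1.97 ± 0.22 (adjusted p = 2.76e-08, edgeR). Between N and bIP it had 6 of 11 lower and 1 higher, beside 22.9% and 14.3% of all promoters. Of 12 midbrain, hindbrain and spinal genes, 5 were lower and 1 (EN1, 1.01 ± 0.23) higher in N than in aRG, with sums of 95.7 to 146 CPM in N, 117 to 162 CPM in bIP, 136 to 148 CPM in bRG and 156 to 171 CPM in aRG. Telencephalic factors also had 7 of 11 lower and 2 higher, and ParaHox and other homeobox genes 6 of 12 lower and 1 higher. Over all promoters, 35.1% were lower and 17.2% higher in N than in aRG. Of the pluripotency list 2 of 6 genes were measured, with sums of 1.64 to 3.33 CPM in N and 1.38 to 3.38 CPM in aRG. The part of any of these lists in the HOX differences was not tested.

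In the deposited consensus peaks, 1 set per cell type, the 19 HOX regions of clusters A to C could be looked up. A peak touched 9 in N, 12 in bIP, 13 in bRG and 12 in aRG. The 19 mix promoter and distal regions, so shares of both kinds are given. In the same order, 37.2%, 35.9%, 35.7% and 36.4% of all regions were touched. For promoter regions alone the shares were 69.8%, 71.7%, 72.6% and 72.2%. HOXB4 at 1891 bp and HOXA7 were touched in the bIP set alone and HOXC8 at 0 bp in the N set alone. HOXB4 at 0 bp and HOXC8 at 2397 bp were touched in every set but that of N, and HOXA10 and HOXC13 at 13400 bp in none. The sets differ in stringency, since their smallest −log10 q was 9.83 in N, 10.1 in bIP, 3.57 in bRG and 5.42 in aRG, and with 1 set per type there is no test of these counts. The build of the peak sets is not stated: of all regions, 35.7% to 37.2% were touched in place and 5.96% to 6.89% after a shift of 50 kb. The HOXD regions were not analysed in the peak sets.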

How the data were processed

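The deposited table holds raw read counts per region and library for 14 libraries, per the file headers, with each region's closest gene and listed distance. The peak files hold a −log10 q per peak, 1 consensus set per cell type, per the file headers; bcl2fastq 2.20.0 and MACS2 (version not given) are named in the submitters' processing notes, with the builds hg38 and panTro6. For aligner, counter and peak build the sources used here give nothing; positions are the gorGor6 ones in the region names, as written. Of 218080 rows, 13823 without a gorilla position (counts all 0) and 8 repeats were left out.

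Counts were fitted in edgeR 4.0.16 (R 4.3.3; TMM, filterByExpr, group plus library series, 9 residual degrees of freedom), with Benjamini-Hochberg adjustment over all 200931 regions and a threshold of 0.05; the fit was tested on simulated data. CPM use TMM-scaled library sizes. DESeq2 1.42.0, limma 3.58.1 (loess offsets), other filters, single-library omissions, a replicate block and summed closest pairs were alternatives. With 12834983 to 26660427 counts per library, 3 counts stand for 0.1125 to 0.2337 CPM; floors cover counting error only.

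The members and gene lists were chosen with earlier results of these data known. Regions named with all values are, per cluster, the 3 promoter and 2 distal regions with the highest CPM per kb and, per comparison, up to 6 called regions with the smallest p; others are given by mean. The labels tie no replicate number to a shared batch. Deviations of same-number libraries correlated above 0.1 in 7 of 8 pairs within a series and 0 of 8 across series, so the numbers were not taken as pairing the libraries. No sequences were read. One gene used to check the labels is not reported here.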

Additional observations from a re-analysis of the deposited data

Results flagged for a closer look

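Among 58 groups of 4 or 5 libraries, 6 held a HOX value far from the rest of its group, where chance gives about 1 in 20. HOXB9 at 9 bp had 1.172 CPM in N replicate 4, with the other N libraries at 2.512 to 2.727 CPM. HOXD8 at 0 bp had 4.924 CPM in N replicate 4 too, with the others at 6.048 to 6.247 CPM. HOXD10 at 0 bp had 0.816 CPM in N replicate 3 against 0.2716 to 0.3506 CPM in the others, and HOXD12 at 1319 bp had 3.938 CPM in N replicate 2 against 3.35 to 3.376 CPM. In bIP, HOXC8 at 0 bp had 3.909 CPM in replicate 5 (others 2.393 to 2.797 CPM), and HOXD3 at 2887 bp had 3.666 CPM in replicate 4 (others 2.07 to 2.51 CPM).

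HOXC13 at 0 bp differed between N and bIP in its response to the library series. The second minus first series difference was -0.58 ± 0.24 (log2, SE) in N and 0.61 ± 0.24 in bIP, neither past the threshold alone (adjusted p = 0.103 and 0.0821), and the difference of the 2 was -1.18 ± 0.34 (adjusted p = 0.026, edgeR over all regions).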

How the results depend on the processing

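Of the calls between cell types, 6 of 16 for N against bIP, 5 of 16 for N against aRG, 2 of 13 for N against bRG, 1 of 3 for bIP against aRG and 0 of 1 for bIP against bRG were kept in every alternative that tested the region; of the 5 series calls, 0 were. The bIP against aRG count of 3 became 5 under DESeq2's size factors, loess offsets, no filter or DESeq2's own test, and 1 in the second series alone. The bIP against bRG count of 1 became 2 under DESeq2's size factors, no filter, no series term or closest pairs summed (an alternative chosen after seeing the data), and 3 in the second series alone. N against bIP became 8 and N against aRG 5 in the second series alone. The series count of 5 became 3 with closest pairs summed and 2 within N. A filter of at least 10 CPM in 2 libraries left 1 HOX region, and counts of 1 for N against bRG and 0 elsewhere. Peaks at or above the median −log10 q of their set touched 8 HOX regions in N, 11 in bIP, 10 in bRG and 7 in aRG, so N was no longer lowest.

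Single-library omissions gave 0 to 0 calls for bRG against aRG, 3 to 5 for bIP against aRG, 1 to 3 for bIP against bRG, 12 to 16 for N against bIP, 14 to 22 for N against aRG, 7 to 15 for N against bRG and 3 to 9 for the series. Of all regions, these omissions called 37.9% to 50.2% for bIP against aRG and 50.5% to 57.9% for N against bIP. For N against aRG and the series the ranges were 60.7% to 68.5% and 11.4% to 22.3%. With the replicate block the counts were 14 for N against bIP, 15 for N against aRG and 2 for N against bRG. They were 2 for bIP against aRG, 0 for bIP against bRG and 0 for the series. Calls over all regions fell too, from 58.1% to 22.3% for N against bRG and from 36.5% to 2.92% for bIP against bRG. For the series they fell from 15.8% to 0.0229%. HOXD10 at 0 bp was lost for bIP against aRG (adjusted p = 0.08, edgeR). HOXA5 at 0 bp changed sign for N against bRG, to a log2 difference of 0.04. The numbers were not taken as pairing the libraries, since 7 of 8 same-number pairs within a series but 0 of 8 across series correlated above 0.1, and 3 of 14 libraries correlated best with their own number. Taken within each series, some calls missed the threshold in at least 1 series, with 1 aRG library in the second. For N against aRG these were HOXA3, HOXA4, HOXA5, HOXB5, HOXB9, HOXC8 at 2397 bp and HOXC13 at 13400 bp. For N against bIP they were HOXA3, HOXB9, HOXB13, HOXC8 at 2397 bp and HOXC13 at 0 bp. HOXD8 at 0 and 344 bp and HOXD10 at 0 and 4718 bp joined them in that comparison. For bIP against aRG they were HOXC13 at 13400 bp and HOXD10 at 0 bp. All these lists come from 1 fit of the 14 libraries with a mean per cell type and series. The second series fitted by itself, as above, was a separate fit, and calls absent from these lists were lost there too. For N against bIP it called 0 regions higher, and HOXC8 at 0 bp had adjusted p = 0.114 (edgeR). The cause of these changes was not tested. Depth limits HOXD10 at 0 bp and HOXC13 at 13400 bp most, where some libraries hold under 5 counts.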
